A study of Mus musculus with 9 samples.

Results

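The expression of 8 Wnt ligands that are known from surface ectoderm was followed in the cranial vault and cranial base of E14.5 mouse embryos. Wnt3, Wnt3a, Wnt4, Wnt6, Wnt7a, Wnt7b, Wnt10a and Wnt10b were chosen by name, as ligands known from skin ectoderm and with earlier results of these data known, so that counts over them are no unselected sample. All 8 had a row among the 43548 gene identifiers measured by RNAseq. MCAGF8 cranial vault came from embryos of an Msx2-Cre and CAGF8 cross in which Msx2-Cre, which is active in the head ectoderm and not in the mesenchyme below it, had switched on an Fgf8b allele at the R26 locus. Control cranial vault and control cranial base came from embryos of the same cross without Cre. The labels call these controls wildtype, but with homozygous CAGF8 parents they also carry the allele, in its silent form, and all groups were of mixed strain. With the skin peeled off, what lay above the brain was collected as vault, while the base was dissected as cartilage from control embryos. Each group held 3 libraries, each a pool of RNA from 3 of 9 tissue samples, so that every error below is the spread between pools. Whether vault and base pools share embryos is not stated, and the fit took them as independent.

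Wnt ligands are secreted glycoproteins that carry a lipid on a conserved serine. The enzyme Porcn adds the lipid, Wls carries the ligand to the cell surface, and the lipid then fits into a groove of the Frizzled receptors. Together with the co-receptors Lrp5 and Lrp6, the canonical branch stabilises beta-catenin, which turns on targets such as Axin2 and Lef1. In the head, Wnt ligands from surface ectoderm signal to the cranial mesenchyme below, where they are known to act on the choice between bone, dermis and cartilage. Wnt3, Wnt3a, Wnt7a and Wnt7b are also made in the developing brain, and Wnt10b is known from hair placodes.

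The part of the gene that encodes the lipid-carrying serine is shown here because all 8 ligands share it while their letters differ enough to tell them apart. The bases were read from GENCODE M21 transcripts on GRCm38, with the serine codon in capitals, and all of them lie in an exon.
Wnt3: tgccacgggttgTCCggcagctgc
Wnt3a: tgccacgggctaTCTggcagctgt
Wnt4: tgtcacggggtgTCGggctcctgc
Wnt6: tgccatgggcttTCGggttcctgc
Wnt7a: tgccatggtgtgTCAggctcctgt
Wnt7b: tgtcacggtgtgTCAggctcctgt
Wnt10a: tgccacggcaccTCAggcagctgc
Wnt10b: tgccatggaacgTCAggcagctgc
All 8 stretches were distinct. They lie at chr11:103812314-103812337 on the plus strand, in exon 4 of 5, for Wnt3 and at chr11:59250053-59250076 on the minus strand, in exon 4 of 4, for Wnt3a. The stretch of Wnt4 lies at chr4:137296345-137296368 (plus strand, exon 5 of 5), that of Wnt6 at chr1:74784172-74784195 (plus strand, exon 4 of 4) and that of Wnt10a at chr1:74803156-74803179 (plus strand, exon 4 of 4). Wnt7a has it at chr6:91366272-91366295 (minus strand, exon 4 of 4), Wnt7b at chr15:85537812-85537835 (minus strand, exon 4 of 4) and Wnt10b at chr15:98772878-98772901 (minus strand, exon 5 of 5). Over the whole coding sequence Wnt3 and Wnt3a were 76.8% identical, Wnt7a and Wnt7b 74.9%, and Wnt10a and Wnt10b 63.4%, within a range of 50.6% to 76.8% over the 28 pairs. No pair shared a coding run longer than 23 bases, against reads of 151 bases. In the table the ligands are ENSMUSG00000000125 (Wnt3), ENSMUSG00000009900 (Wnt3a), ENSMUSG00000036856 (Wnt4), ENSMUSG00000033227 (Wnt6), ENSMUSG00000030093 (Wnt7a), ENSMUSG00000022382 (Wnt7b), ENSMUSG00000026167 (Wnt10a) and ENSMUSG00000022996 (Wnt10b). The genes Wnt6 and Wnt10a are neighbours on chromosome 1, on the same strand and 6.2 kb apart.

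The values are FPKM, fragments scaled by transcript length and by mapped reads, so levels can be compared between genes. The files give no read counts, so the depth behind each value is unknown. Library sums ran from 793249 to 1315982 FPKM. The table lists Fgf8, the gene of the activated allele, at 13.5, 8.25 and 3.01 FPKM in control vault replicates 1, 2 and 3, at 19.5, 9.43 and 13.0 in MCAGF8 vault and at 3.78, 17.4 and 5.82 in control base, and the groups overlapped. These libraries therefore give no check of the genotype labels by Fgf8. Cartilage markers, a list led by Col2a1, Col9a1 and Matn1, summed to 5469 FPKM in control base replicate 2 but to 443 and 678 in replicates 1 and 3, below the 895 to 1223 of control vault. Skeletal muscle markers, led by Mylpf, Acta1 and Tnnc2, summed to 1628 to 10950 FPKM in control base, to 853 to 5473 in control vault and to 16.7 to 177 in MCAGF8 vault. Control base replicate 2 stood apart, with the most cartilage and the least muscle, epidermal and brain marker RNA of its group. Cartilage markers in replicates 1 and 3, from tissue that the study's methods describe as cartilage, were thus not above those of vault. The ligand results against base, and the list counts and genes named there, are also given without replicate 2, a choice made for the lists after the data were seen.

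Most of these ligands were higher in MCAGF8 vault than in control vault. Wnt3, Wnt3a, Wnt4 and Wnt7b rose past the threshold, a limma p below 0.05 that also stayed below 0.1 after Benjamini-Hochberg adjustment over all genes tested. Wnt6 and Wnt7a passed the unadjusted threshold alone, and Wnt10a and Wnt10b passed neither. Wnt3a and Wnt7a were tested only because of their level in MCAGF8 vault, as set out below. Of the 18714 genes tested, 0.604% were called in this comparison, and 0.23% of the genes tested were called higher. An unadjusted p under 0.05 was reached by 6.34% of genes, and 2.86% of genes reached it by being higher.

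Wnt3 and Wnt3a, closely related ligands that signal through beta-catenin, were close to the floor of the table in control vault. Wnt3 stood at 0.0812, 0.642 and 0.0503 FPKM in control vault replicates 1, 2 and 3 and at 3.47, 3.58 and 3.99 FPKM in MCAGF8 vault. The lowest MCAGF8 library was 5.41 times the highest control library, so the groups did not overlap. On the log2(FPKM + 1) scale Wnt3 was higher by 1.93 (SE 0.31, adjusted p = 0.0566 by limma), a scale that understates the change of genes this low. Wnt3a was at 0.0457, 0.352 and 0.0560 FPKM in control vault and at 2.10, 3.17 and 1.99 FPKM in MCAGF8 vault. Its groups did not overlap either, and it was higher by 1.56 on the same scale (SE 0.27, adjusted p = 0.0723). For both ligands control vault replicate 2 was the highest of its group.

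Wnt4, a ligand best known from kidney and gonad that can signal with or without beta-catenin, was low in control vault and well above its spread in MCAGF8 vault. It stood at 2.19, 2.56 and 1.69 FPKM in control vault and at 8.66, 10.2 and 9.57 FPKM in MCAGF8 vault, a ratio of mean FPKM of 4.42. The log2 difference was 1.74 (SE 0.25, adjusted p = 0.0374). Wnt7b, which is known from lung and skin epithelium, stood at 1.88, 1.58 and 2.33 FPKM in control vault and at 7.88, 8.35 and 6.96 FPKM in MCAGF8 vault. The ratio of mean FPKM was 4.0 and the log2 difference 1.58 (SE 0.21, adjusted p = 0.0373). Wnt4 and Wnt7b had the smallest adjusted p of the 8, and in both the spread within each vault group was at most 1.51 times from lowest to highest library.

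Wnt7a, the close relative of Wnt7b and the dorsal signal of the limb ectoderm, was less abundant throughout. It stood at 0.0197, 0.208 and 0.0643 FPKM in control vault and at 2.10, 2.597 and 1.16 FPKM in MCAGF8 vault. Every MCAGF8 library was above every control library, but the log2 difference of 1.40 (SE 0.32) came with an adjusted p of 0.176 and was not called. Wnt6, the most abundant of the 8 and a ligand known throughout the surface ectoderm, stood at 7.87, 10.01 and 8.77 FPKM in control vault and at 18.4, 22.6 and 15.7 FPKM in MCAGF8 vault. The groups did not overlap, with a log2 difference of 1.00 (SE 0.22) and an adjusted p of 0.147, so Wnt6 was not called.

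The Wnt10 ligands, which are known from hair follicle and tooth development, differed least. Wnt10a stood at 1.12, 0.966 and 1.38 FPKM in control vault and at 1.80, 3.56 and 1.57 FPKM in MCAGF8 vault. The lowest MCAGF8 library was 1.14 times the highest control library, and the log2 difference of 0.57 (SE 0.34, adjusted p = 0.964) was not called. Wnt10b stood at 4.54, 4.20 and 3.68 FPKM in control vault and at 4.97, 4.54 and 4.36 FPKM in MCAGF8 vault. Here the groups overlapped, and the log2 difference was 0.13 with a 95% interval of -0.55 to 0.81, which still allows a change of either sign.

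**Figure D1:**
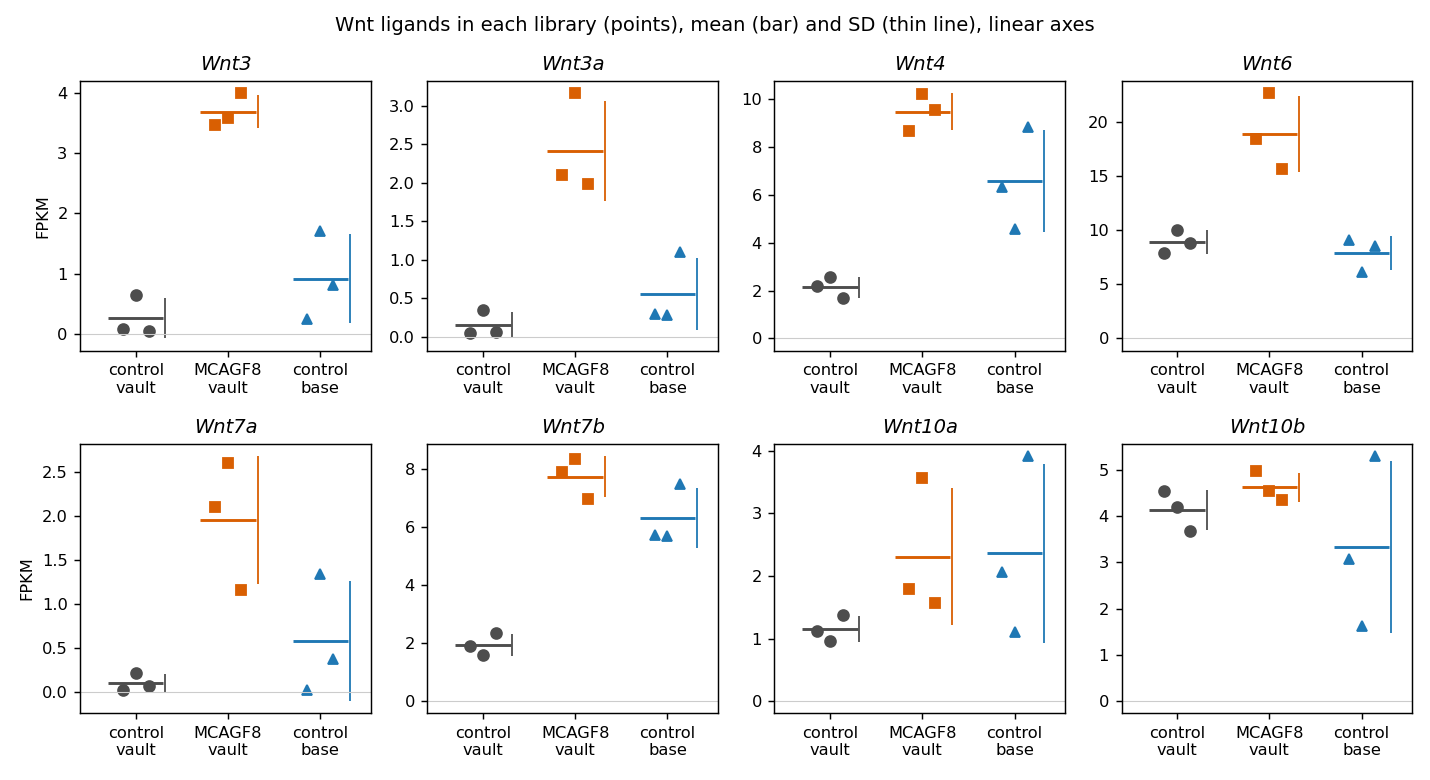
FPKM of each of the 8 ligands (vertical axes, linear, 1 panel a gene) in the 3 libraries of control vault, MCAGF8 vault and control base, with the group mean as a bar and the SD as a thin line. In every panel but that of Wnt10b all 3 MCAGF8 points sit above all 3 control vault points, narrowly so for Wnt10a.

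Counted together, with means taken of log2(FPKM + 1) here and in all counts that follow, all 8 ligands had a higher mean in MCAGF8 vault than in control vault, 7 of 8 did not overlap between the groups, and 4 of 8 were called. Over all genes tested, 48.5% were higher, 19.2% did not overlap and 9.9% were higher without overlap. The median log2 difference of the 8 was 1.48, beside -0.01 for all genes tested. Genes were tested if they averaged at least 0.5 FPKM over the 9 libraries, and Wnt3a and Wnt7a owed their place to MCAGF8 vault. Their means there were 2.42 and 1.95 FPKM, against 0.151 and 0.0974 in control vault and 0.559 and 0.574 in control base. High values in MCAGF8 vault were thus a condition of their test, so in every count and call of the ligands, above and below, they lend no support. In bulk tissue, more cells that make a ligand and more of its RNA per cell cannot be told apart. The calls stood near the adjusted threshold and rested on single libraries. The count of 4 fell to 0 by limma without MCAGF8 vault replicate 1 or 2 or without control vault replicate 1 or 3, and to 1 (Wnt7b) without MCAGF8 vault replicate 3, while 6 of 8 stayed at an unadjusted p under 0.05 each time. It was 6 without control base replicate 2, a library that bears on the vault comparison only through the shared error and the filter.

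The stretch before the start of transcription is shown for 2 members, chosen after their values were seen. Wnt6 is the most abundant ligand, and Wnt10b had the smallest difference. The 250 bases before the start site were taken from RefSeq on GRCm38.p6, where 6 of the 8 ligands had an entry (not Wnt7b and Wnt10a), and capitals mark GC boxes (GGGCGG) on either strand.
Wnt6: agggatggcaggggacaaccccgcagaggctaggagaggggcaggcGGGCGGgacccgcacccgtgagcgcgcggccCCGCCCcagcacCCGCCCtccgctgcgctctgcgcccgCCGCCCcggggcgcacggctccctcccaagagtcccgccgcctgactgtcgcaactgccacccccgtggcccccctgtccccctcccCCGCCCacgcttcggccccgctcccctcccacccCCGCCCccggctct
Wnt10b: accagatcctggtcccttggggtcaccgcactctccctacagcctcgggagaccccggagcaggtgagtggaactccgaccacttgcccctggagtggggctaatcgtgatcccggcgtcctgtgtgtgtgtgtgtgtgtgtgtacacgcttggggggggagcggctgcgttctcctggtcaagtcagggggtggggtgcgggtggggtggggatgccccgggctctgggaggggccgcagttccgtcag
The first is chr1:74771642-74771891 on the plus strand and the second chr15:98778151-98778400 on the minus strand. The Wnt6 stretch held 6 GC boxes and the Wnt10b stretch 0, with 9 in Wnt3a, 8 in Wnt4, 6 in Wnt7a and 2 in Wnt3, where overlapping matches count separately. By the GENCODE gene models both printed stretches lie wholly outside the gene, while RefSeq starts Wnt4 further in, so that 146 of its 250 bases lie inside the GENCODE gene (25 for Wnt3, 10 for Wnt7a and 1 for Wnt3a). Of all 32851 promoters in the table, 32.7% held a GC box in a window of this length. The core letters of a TCF/LEF site (CTTTGA, either strand) were in 0 of the 6 member windows and in 13.8% of all, and the TATA letters (TATAAA, either strand) were in 0 of the 6 and in 12.4% of all. A match, or the lack of one in this window, is a description of the letters and says nothing of binding.

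Genes of the epidermis differed between the same libraries. Krt14, the keratin of basal epidermis, stood at 5.40, 22.1 and 0.798 FPKM in control vault, at 132, 123 and 172 FPKM in MCAGF8 vault and at 89.7, 11.5 and 162 FPKM in control base. Trp63, the regulator of epidermal identity, stood at 0.985, 1.94 and 0.620 FPKM in control vault and at 7.96, 4.98 and 12.4 FPKM in MCAGF8 vault. Both were higher in every MCAGF8 vault library than in every control vault library. The log2 difference was 4.46 for Krt14 (SE 1.01, adjusted p = 0.160) and 2.08 for Trp63 (SE 0.44, adjusted p = 0.128), and neither was called. Of 18 epidermal markers, led by Krt15, Krt5 and Krt14, 17 had a higher mean in MCAGF8 vault, 3 were called higher (Krt5, Pkp1 and Grhl3) and 12 were at an unadjusted p under 0.05. Their summed level was 64.2 to 145 FPKM in control vault, 495 to 1156 FPKM in MCAGF8 vault and 150 to 853 FPKM in control base, and 0 of the 18 were at 0 in all libraries of a group. The 1156 FPKM was MCAGF8 vault replicate 3, against 518 and 495 FPKM in replicates 1 and 2. In MCAGF8 vault replicates 1, 2 and 3, Krt1 stood at 9.98, 5.39 and 136 FPKM and Krt10 at 9.56, 6.69 and 176 FPKM.

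Ratios of the ligands to Krt14 are given as a description and differed from ligand to ligand. Per 100 FPKM of Krt14, Wnt3 stood at 1.504, 2.90 and 6.30 FPKM in control vault and at 2.63, 2.91 and 2.32 FPKM in MCAGF8 vault, so its ratio overlapped between the groups, as did those of Wnt3a and Wnt7a. The ratios of Wnt4, Wnt6, Wnt7b, Wnt10a and Wnt10b were lower in every MCAGF8 library than in every control vault library. The lowest MCAGF8 value of Krt14 was 5.56 times the highest control vault value, so a gene of unchanged level would also be lower. No share over all genes was counted, and these ratios are no test of carried-over epidermis. Set against the sum of the 18 epidermal markers instead, only Wnt6 and Wnt10b of these 5 were lower without overlap, and Wnt4, Wnt7b and Wnt10a overlapped. Per 100 FPKM of that sum Wnt4 stood at 2.71, 1.76 and 2.63 FPKM in control vault and at 1.67, 2.06 and 0.828 FPKM in MCAGF8 vault. For Wnt7b the ratio to Krt14 was 34.8, 7.15 and 292 in control vault and 5.97, 6.79 and 4.04 in MCAGF8 vault. Within control vault Krt14 ran from 0.798 to 22.1 FPKM. There Wnt3, Wnt3a, Wnt4, Wnt6 and Wnt7a were highest in the library with the most Krt14. In that library Wnt7b and Wnt10a were lowest, and Wnt10b lay between its other values.

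With the log2 level of Krt14 in each library as a covariate in the fit, 0 of the 8 ligands and 0 of all genes tested were called by limma, and 5 of the 8 were at an unadjusted p under 0.05. The log2 difference by limma was then 2.06 for Wnt3 (SE 0.57, adjusted p = 0.437), 1.96 for Wnt7a (SE 0.55, adjusted p = 0.451) and 1.64 for Wnt7b (SE 0.40, adjusted p = 0.279), in each case at least as large as without it. It was 1.05 for Wnt4 and 1.05 for Wnt3a, smaller than without it, and 0.64 for Wnt6 (adjusted p = 0.871). Wnt10b turned to -0.67 (SE 0.46, adjusted p = 0.871). All 9 libraries set the slope on Krt14, control base among them. In control base replicate 2 Krt14 was lowest of its group, at 11.5 FPKM, while Wnt3 (1.71 FPKM) and Wnt7a (1.34 FPKM) were highest. Within control vault both ligands were highest where Krt14 was highest. The part of that base library in the covariate values was not tested. The mean of the 18 epidermal markers then served as covariate in place of Krt14. Again 0 of the 8 were called by limma, and 5 were at an unadjusted p under 0.05. In neither covariate fit was the share of all genes at that unadjusted threshold counted, so the 5 have no background beside them. Wnt3a and Wnt7a were among the 5 in both fits. They lend no support there, since their test depended on high values in MCAGF8 vault. In vault tissue, genotype and carried-over epidermis cannot be fully told apart, since MCAGF8 and control vault libraries shared no range of Krt14.

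**Figure D2:**
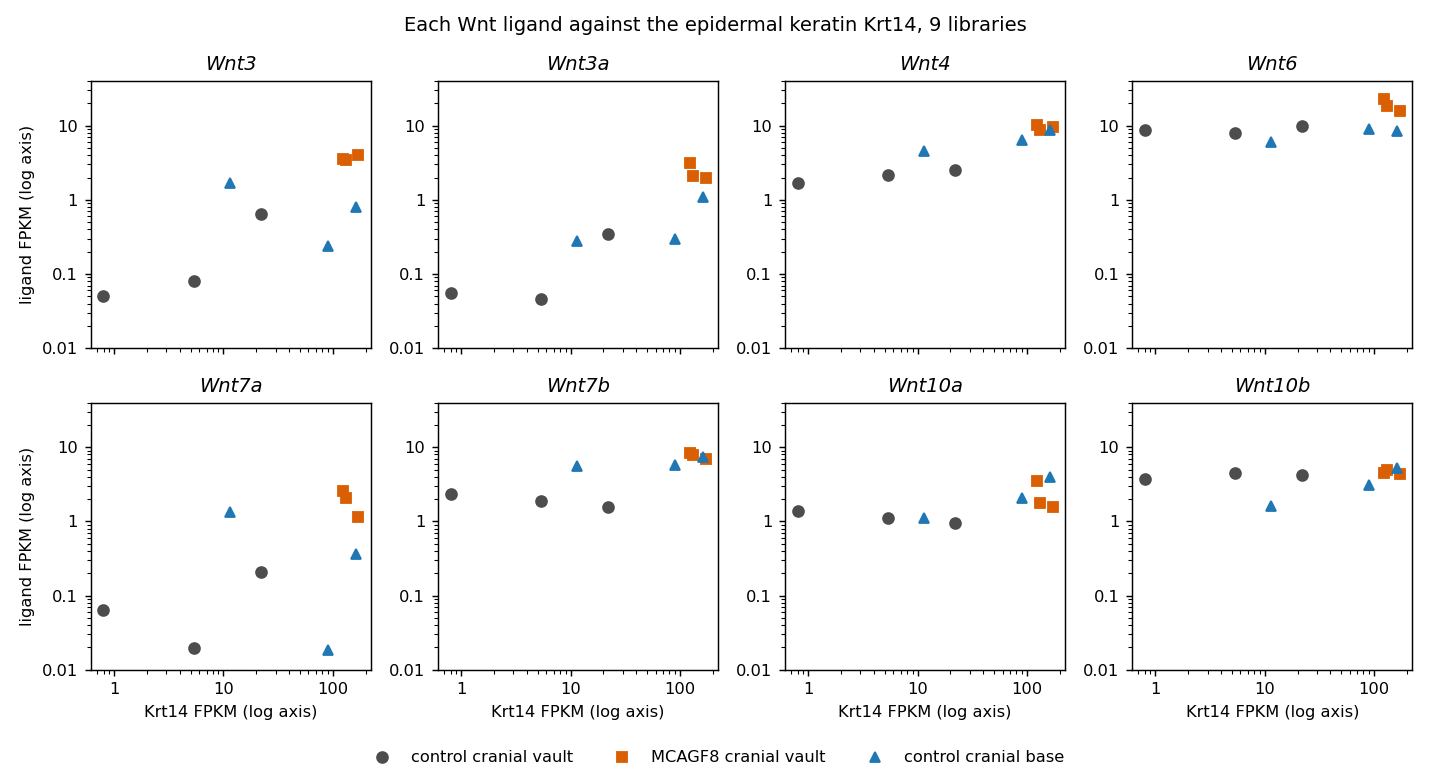
FPKM of each ligand against FPKM of Krt14 in the 9 libraries (both axes log), with control vault as circles, MCAGF8 vault as squares and control base as triangles. For Wnt3, Wnt3a and Wnt6 every square lies above every triangle, and for Wnt7a 1 triangle reaches the lowest square, while for Wnt4, Wnt7b, Wnt10a and Wnt10b the triangle at 162 FPKM of Krt14 lies among or beside them.

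Control base gave 1 library with as much Krt14 as MCAGF8 vault. In control base replicate 3, whose 162 FPKM of Krt14 lay within the MCAGF8 range of 123 to 172, Wnt4 was at 8.86 and Wnt7b at 7.49 FPKM, both within the MCAGF8 range. Wnt10a at 3.91 and Wnt10b at 5.30 FPKM were above every MCAGF8 library. Wnt3 at 0.806, Wnt3a at 1.10, Wnt6 at 8.55 and Wnt7a at 0.367 FPKM were below every MCAGF8 library. This is 1 library of another tissue and carries no test. It also held other epithelial RNA, with 421 FPKM of summed periderm markers against 39.6 to 66.3 FPKM in MCAGF8 vault. The sum of 6 markers of oral, nasal and pharyngeal epithelium, Bpifa1 and Sox2 among them, was 137.4 FPKM in it and 0.565 to 1.54 FPKM in MCAGF8 vault. The part of these epithelia in its Krt14 and ligand values was not tested.

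Against control base as a group, 8.39% of all genes tested were called and 2.98% of all were called higher in MCAGF8 vault, while 3 of the 8 ligands were called, all higher. All 8 had a log2 difference above 0, as had 43.6% of all genes, although the mean FPKM of Wnt10a was 2.31 in MCAGF8 vault and 2.36 in control base, and 4 were at an unadjusted p under 0.05, against 19.6% of all genes (6.83% higher). Wnt3 stood at 0.2402, 1.71 and 0.806 FPKM in control base replicates 1, 2 and 3, below the 3.47 to 3.99 FPKM of MCAGF8 vault, with a log2 difference of 1.36 (SE 0.31, adjusted p = 0.0380). Wnt3a stood at 0.296, 0.279 and 1.10 FPKM in control base, and the difference was 1.16 (adjusted p = 0.0392). Wnt6 stood at 9.04, 6.11 and 8.55 FPKM in control base, and the difference was 1.16 (SE 0.22, adjusted p = 0.0182). These 3 ligands were the ones without overlap between the groups, against 21.9% of all genes (8.91% higher). Wnt7a stood at 0.0182, 1.34 and 0.367 FPKM in control base and overlapped, with a difference of 0.96 (adjusted p = 0.138), and was called without control base replicate 2 (1.29, adjusted p = 0.0188). Wnt3 (1.64), Wnt3a (1.03) and Wnt6 (1.01) kept their calls without that library, and Wnt10a turned from 0.02 to -0.28, uncalled in both cases.

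Wnt4, Wnt7b, Wnt10a and Wnt10b overlapped between MCAGF8 vault and control base and were not called. The difference had a 95% interval of -0.06 to 1.06 for Wnt4, -0.21 to 0.74 for Wnt7b, -0.75 to 0.78 for Wnt10a and -0.21 to 1.14 for Wnt10b, and those of Wnt4 and Wnt10b take in a difference of 1 log2 unit. Krt14 did not pass the threshold in this comparison (1.31, SE 1.01, adjusted p = 0.521), and its difference hung on single libraries, at 0.22 without control base replicate 2 and 2.07 without replicate 3. Wnt6 kept its call in all 22 alternatives, while Wnt3 and Wnt3a were called in 15 and 16 of 21. Without MCAGF8 vault replicate 1 or 2 the count of called ligands was 1 (Wnt6), and without replicate 3 it was 2.

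Between the control tissues, Wnt4 and Wnt7b were the ligands that differed past the threshold. Wnt4 stood at 6.34, 4.59 and 8.86 FPKM in control base against 1.69 to 2.56 FPKM in control vault, a log2 difference of 1.24 (SE 0.25, adjusted p = 0.0485). Wnt7b stood at 5.73, 5.67 and 7.49 FPKM in control base against 1.58 to 2.33 FPKM in control vault, a difference of 1.31 (SE 0.21, adjusted p = 0.0198). In this comparison 3.06% of all genes tested were called and 1.85% of all were called higher in base, while the other 6 ligands were not called. The same 2 ligands were at an unadjusted p under 0.05 and did not overlap, against 12.8% of all genes (8.09% higher) and 15.5% (8.86% higher), and 6 of 8 had a higher mean in base, against 58.8% of all genes. For Wnt6 the mean was 7.90 FPKM in base and 8.89 FPKM in vault (95% interval of the log2 difference -0.66 to 0.33). Epidermal markers differed here too. Of 18, 15 had a higher mean in control base, 2 were called higher, and 13 higher and 1 lower were at an unadjusted p under 0.05, and all 8 periderm markers, led by Krt17, Krt19 and Krt18, had a higher mean in base, with 4 called. Without control base replicate 2, 10 epidermal and 6 periderm markers were called higher in base, Krt14 among them (4.24, adjusted p = 0.0275). The sum of the 6 oral, nasal and pharyngeal markers was 49.0, 12.3 and 137.4 FPKM in control base replicates 1, 2 and 3 and 13.8, 1.27 and 10.3 FPKM in control vault.

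With Krt14 as a covariate 0 of the 8 ligands were called by limma between the control tissues, and Wnt4 (0.76, adjusted p = 0.684), Wnt7b (1.36, adjusted p = 0.292) and Wnt10b (-0.90, adjusted p = 0.714) were at an unadjusted p under 0.05. The call of Wnt4 was lost without control base replicate 3 or without any 1 control vault library, while Wnt7b kept it in each case. Without control base replicate 2 both were called (1.44 for Wnt4 and 1.37 for Wnt7b). The 3 comparisons share libraries, so their values are not independent of each other.

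**Figure D3:**
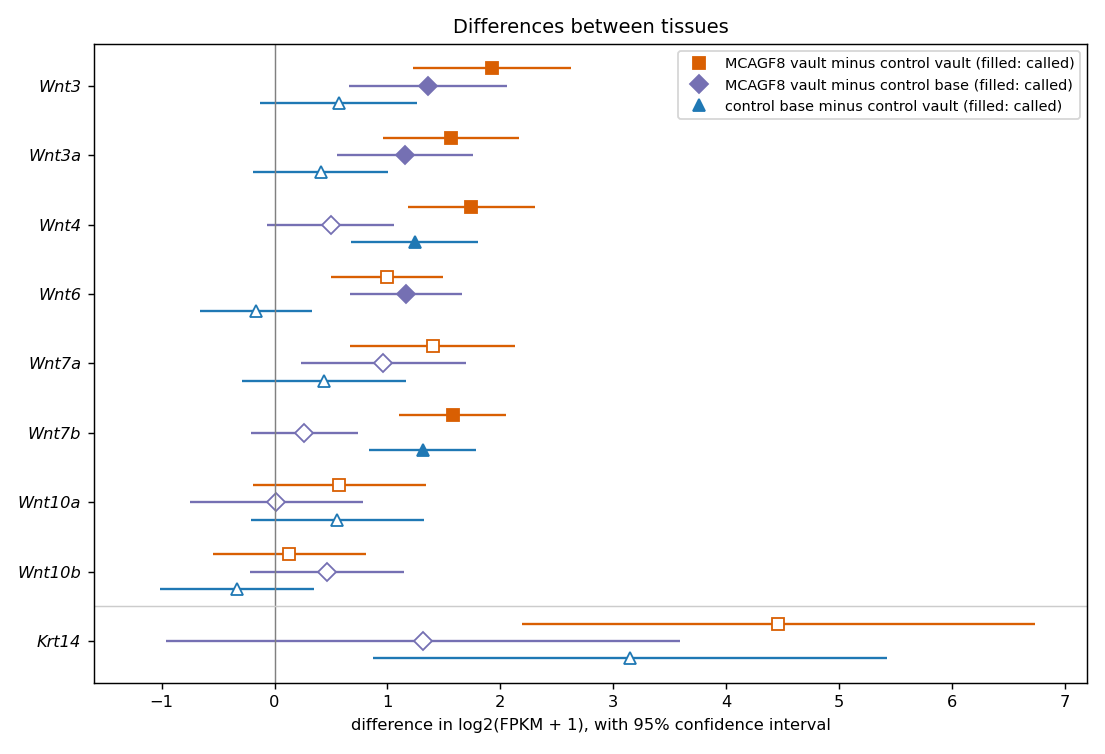
Difference in log2(FPKM + 1) of each ligand and of Krt14 in the 3 comparisons (horizontal axis), with 95% confidence intervals from limma and filled symbols for called genes. Wnt3 and Wnt3a are called against both control tissues, and Wnt4 and Wnt7b in both comparisons with control vault. Wnt6 is called against control base only, and Wnt7a, Wnt10a and Wnt10b in none.

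The make-up of the ligand pool also differed between tissues. The 8 ligands summed to 17.8, 20.5 and 18.0 FPKM in control vault, to 49.4, 58.6 and 45.2 FPKM in MCAGF8 vault and to 26.8, 22.4 and 36.4 FPKM in control base, with no overlap between any of the groups. In control vault the order was Wnt6, Wnt10b, Wnt4, Wnt7b, Wnt10a, Wnt3, Wnt3a and Wnt7a. There Wnt4 and Wnt7b, and also the last 3, overlapped with their neighbours in the order, and the other steps did not. In MCAGF8 vault the order was Wnt6, Wnt4, Wnt7b, Wnt10b, Wnt3, Wnt3a, Wnt10a and Wnt7a, where the last 3 overlapped with their neighbours. In control base Wnt6, Wnt4 and Wnt7b overlapped with each other, as did Wnt10b, Wnt10a, Wnt3, Wnt7a and Wnt3a from neighbour to neighbour. Wnt6 made up 44.4% to 48.8% of the sum in control vault, 34.6% to 38.6% in MCAGF8 vault and 23.5% to 33.7% in control base. Wnt10b, second in control vault with 20.4% to 25.6%, made up 7.75% to 10.1% in MCAGF8 vault.

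**Figure D4:**
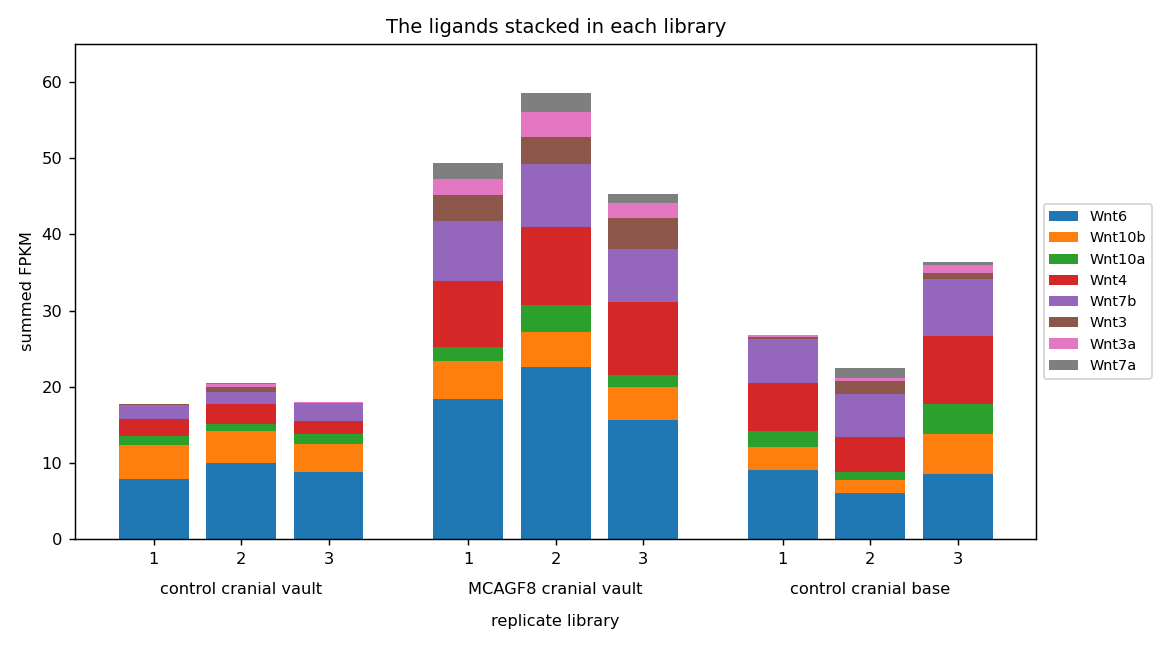
FPKM of the 8 ligands stacked in each of the 9 libraries (vertical axis, summed FPKM, from 0). The MCAGF8 vault bars reach 45.2 to 58.6 FPKM against 17.8 to 20.5 in control vault, while the Wnt10b segment is of like size in both.

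The other genes of the pathway were taken from lists by role. Of 10 other Wnt ligands 7 were tested, and in the vault comparison 4 had a higher and 3 a lower mean, with a median log2 difference of 0.01. Wnt5a, a ligand of the non-canonical branch that is made in mesenchyme, was the 1 called, at 25.7, 39.0 and 23.8 FPKM in control vault and 92.3, 74.4 and 72.4 FPKM in MCAGF8 vault (1.43, SE 0.22, adjusted p = 0.0508). Wnt2 was lower at the unadjusted threshold alone (-0.93, adjusted p = 0.668), with 16.9 to 20.3 FPKM in control vault and 7.60 to 10.6 FPKM in MCAGF8 vault. Wnt9b, too low to be tested, stood at 0.0407, 0.0521 and 0.0111 FPKM in control vault and at 1.29, 0.797 and 0.352 FPKM in MCAGF8 vault. Wnt1 and Wnt8b, also untested, had means of 0.0178 and 0.0313 FPKM in control vault and 0.00862 and 0.00591 FPKM in MCAGF8 vault. Of 6 genes for ligand secretion and processing, 0 were called or reached an unadjusted p under 0.05 by limma. Among them Wls had a mean of 151.1 FPKM in control vault and 148.5 FPKM in MCAGF8 vault (95% interval of the log2 difference -0.39 to 0.35).

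Of 15 receptors and co-receptors, 8 had a higher and 7 a lower mean in MCAGF8 vault, and their median difference was 0.03 on the log2 scale. Fzd10, a Frizzled receptor, was called, at 4.54, 8.28 and 4.39 FPKM in control vault and 19.5, 20.6 and 14.8 FPKM in MCAGF8 vault (1.55, SE 0.30, adjusted p = 0.0925). By limma, Fzd9 was higher (0.90, adjusted p = 0.561) and Fzd5 lower (-0.96, adjusted p = 0.160) at the unadjusted threshold alone. Of 13 antagonists tested of 14 listed, 0 were called by limma and 2 were at an unadjusted p under 0.05, both higher. These were Sostdc1, which binds the co-receptors (1.64, adjusted p = 0.253), and Kremen2, which takes Lrp6 off the surface together with Dkk1 (1.31, adjusted p = 0.409). With Krt14 as a covariate the difference of Kremen2 turned to -0.10.

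Of 12 canonical targets and feedback genes, 9 had a higher and 3 a lower mean in MCAGF8 vault, and 2 were called, both higher. Unadjusted p-values under 0.05 were found for 7 higher and 3 lower genes of the 12, with a median log2 difference of 0.78. The 3 lower genes were Tcf7 (-1.41), Bambi (-0.95) and Ccnd1 (-0.65), none of them called. Axin2 was higher by 0.92 (adjusted p = 0.181 by limma) and was not called. Apcdd1, a feedback inhibitor, stood at 23.1, 24.7 and 25.3 FPKM in control vault and at 92.6, 84.7 and 84.4 FPKM in MCAGF8 vault (1.80, SE 0.31, adjusted p = 0.0723). Sp5, a direct target, stood at 0.769, 0.395 and 0.812 FPKM in control vault and at 4.02, 6.37 and 3.44 FPKM in MCAGF8 vault (1.73, SE 0.30, adjusted p = 0.0723). Lef1, a nuclear partner of beta-catenin, was not called (1.63, adjusted p = 0.238). These calls were no firmer than those of the ligands. Of the alternatives tried, the call was lost in 13 of 22 for Fzd10, 10 of 22 for Wnt5a, 11 of 22 for Apcdd1 and 11 of 21 for Sp5, and all of these genes lost it without any 1 of the MCAGF8 vault libraries and without control vault replicate 1 or 3. Apcdd1 and Sp5 were also called higher against control base, where 5 of the 12 were called, all higher. Without control base replicate 2 these were 6 higher and 1 lower, with Lef1 now called (1.93, adjusted p = 0.00321), Apcdd1 at 1.22 and Sp5 at 1.43.

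Against control base, 2 of the 7 other ligands, 1 of the 6 secretion genes, 2 of the 15 receptors and 3 of the 13 antagonists were called as well, all higher in MCAGF8 vault. Without control base replicate 2 the called genes were 2 other ligands and 2 secretion genes, all higher, with 4 receptors higher and 1 lower and 3 antagonists higher and 1 lower. Wls was the secretion gene, with a mean of 92.6 FPKM in control base (0.68, adjusted p = 0.0472, and 0.60 without replicate 2). Between the control tissues 2 other ligands and Wls were called lower in base, where Wnt2 had a mean of 4.34 FPKM against 18.1 FPKM in control vault (-1.99, adjusted p = 0.0384). There 1 antagonist was called higher and 3 lower, 1 target was called higher, and 0 of the 15 receptors were called by limma (1 higher and 2 lower at an unadjusted p under 0.05). Sostdc1 was the antagonist called higher in base (2.16, adjusted p = 0.0469), at a mean of 39.2 FPKM. Without control base replicate 2 Wnt2 (-1.51), Wls (-0.62) and Sostdc1 (2.64) were called in the same direction between the control tissues, with 2 other ligands and 2 secretion genes lower, 2 antagonists higher and 2 lower, 1 target higher and 0 receptors by limma (1 higher and 2 lower at an unadjusted p under 0.05).

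**Figure D5:**
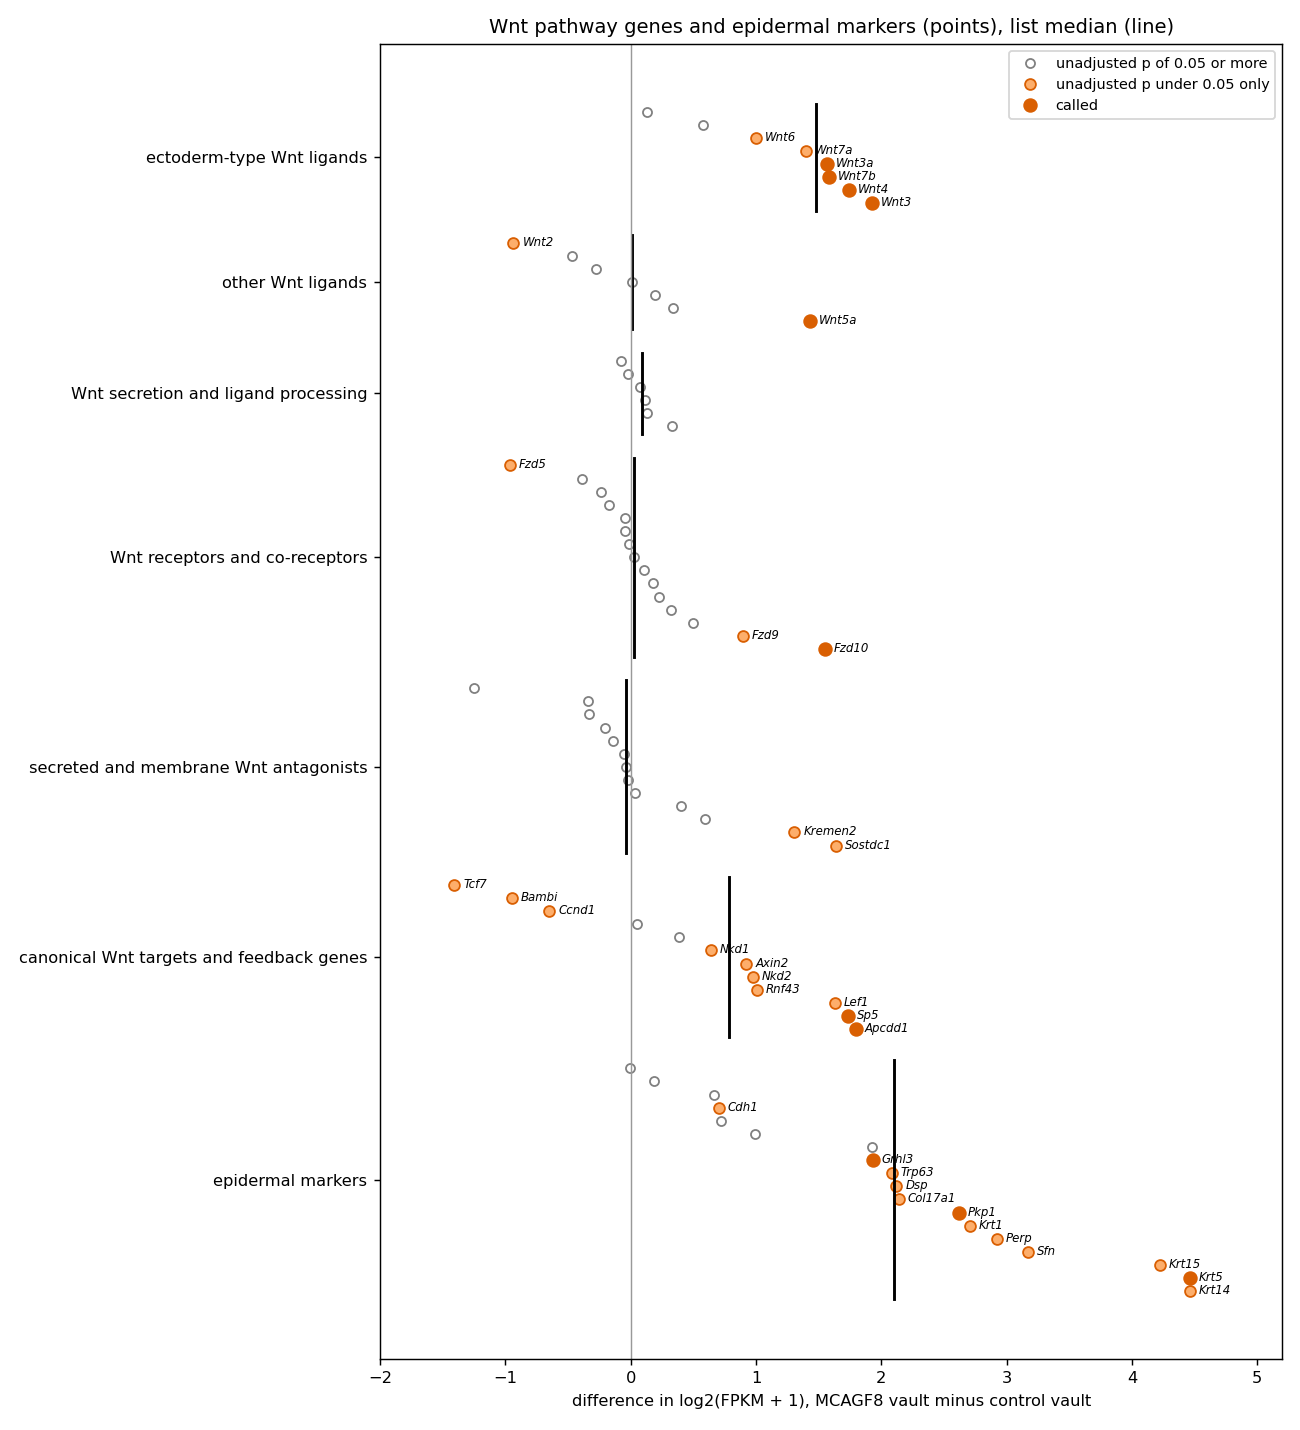
Difference in log2(FPKM + 1) between MCAGF8 vault and control vault (horizontal axis) for the genes of 6 Wnt pathway lists and the epidermal markers, 1 point a gene, with a line at each list's median and symbols filled dark for called genes and light for an unadjusted p under 0.05 alone. Medians are 1.48 for the ectoderm-type ligands, 0.78 for targets, 2.10 for epidermal markers and between -0.04 and 0.09 for the other lists.

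Markers of other tissues that could lie in the dissection differed between the vaults as well, and their part in the ligand values was not tested. Dermal mesenchyme markers, led by Lum, Crabp1 and Twist2, summed to 1381 to 1800 FPKM in control vault and 1999 to 2273 FPKM in MCAGF8 vault, with 5 of 7 higher in mean and 0 called by limma (2 at an unadjusted p under 0.05). Brain markers, led by Stmn2, Nes and Dcx, summed to 101 to 118 FPKM in control vault, 68.0 to 111 FPKM in MCAGF8 vault and 191 to 554 FPKM in control base. In the vault comparison 1 of 7 tested had a higher and 6 a lower mean, with 1 called lower. Hair placode markers, led by Sostdc1, Cdh3 and Bmp2, summed to 34.9 to 61.2 FPKM in control vault and 53.1 to 75.5 FPKM in MCAGF8 vault, with 4 of 6 tested higher, 0 called by limma, and 1 higher and 1 lower at an unadjusted p under 0.05. Periderm markers were higher in mean for 5 of 8, with 0 called by limma, and 3 higher and 1 lower at an unadjusted p under 0.05. Cartilage markers were higher in mean for 6 of 6, with 0 called by limma and 1 at an unadjusted p under 0.05. Choroid plexus markers, led by Aqp1, Otx2 and Ttr, were split, with 2 of 4 tested higher in mean, 0 called by limma, and 1 higher and 1 lower at an unadjusted p under 0.05. Skeletal muscle markers were lower for 8 of 8 genes (6 called). Osteoblast markers, led by Ibsp, Spp1 and Alpl, were lower for 6 of 6 (3 called), at 1158 to 2765 FPKM in control vault and 123 to 246 FPKM in MCAGF8 vault.

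Across the 9 libraries the ligands differed in which genes they resembled most. Likeness was Pearson's r of log2(FPKM + 1) over the 9 libraries, which fall into 3 groups, among genes with a mean of at least 5 FPKM, and is given as a description. Wnt4 and Wnt7b were each other's near match (r = 0.947), and both were close to Usp3 (0.943 and 0.981). Trp63 came next for Wnt4 (0.938), and r with Krt14 was 0.937 for Wnt4, 0.791 for Wnt7b, 0.794 for Wnt3a and 0.372 for Wnt10b. Wnt6 was most like the pigment gene a (nonagouti, 0.976) and the dermal regulator Twist2 (0.967). Wnt3 and Wnt3a shared St8sia2 (0.955 and 0.977), with Slc19a2 (0.960) and Prom1 (0.958) for Wnt3 and Sult5a1 (0.962) and Sox4 (0.955) for Wnt3a. Wnt7a was most like Atp1b2 (0.976), Lef1 (0.959) and Pou3f3 (0.949). Wnt10a was most like Olfm2 (0.974) and Wnt10b most like Rhof (0.959). For the sum of the 8 the nearest genes were Sult5a1 (0.972), Dusp6, a feedback gene of FGF signalling (0.964), St8sia2 (0.963), Emilin3 (0.95) and Slc2a3 (0.939).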

How the data were processed

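RNAseq was analysed in 9 libraries (3 groups of 3). The authors prepared stranded mRNA libraries, mapped single-end reads of 151 bases with gSNAP and derived expression with Cufflinks, whose versions are, like the build, not given in the sources used here. FPKM for each Ensembl gene is the unit they deposited. Repeated identifiers (63 rows) were summed, and 9 genes with placeholder numbers were left out, none of them a ligand described here. Values were fitted as log2(FPKM + 1) by R 4.3.3 and limma 3.58.1 (a trended eBayes after lmFit and contrasts.fit), 1 mean per group over all libraries, two-sided, on 18714 genes that averaged 0.5 FPKM or more. Where nothing says that pools were independent, p-values measure the spread between pools. The fit was tested on simulated data. The shifts set there were larger than any ligand difference of the main fit. They were placed only in genes above the control vault level of Wnt3, Wnt3a, Wnt4, Wnt7a, Wnt7b and Wnt10a. That run thus did not cover differences of the ligands' size, nor the level of these genes. Positions came from GENCODE M21 and descriptions were computed in Python 3.11.15 (numpy 2.4.6, pandas 2.3.3).

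The members and lists were chosen with earlier results of these data known. Besides the ligands, Krt14, Krt5, Trp63 and Fgf8, genes were named by rule: up to 3 per list at an unadjusted p under 0.05 with the largest difference between the vaults, the 3 most abundant of each marker list, and the genes of highest r. Pkp1, Grhl3, Krt1, Krt10, Wnt9b, Wnt1, Wnt8b, Tcf7, Bambi and Ccnd1 were named after their values were seen, as was the result of Axin2. Alternatives were other pseudocounts (0.1, 0.01), filters, scalings, libraries, thresholds and covariates, a replicate block, no moderation, the highest row of repeated identifiers, and each library left out. A gene of the oral, nasal and pharyngeal list is not reported here, and that list is given without it, as sums and with no test. The depth is unknown, so no counting interval is given.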

Additional observations from a re-analysis of the deposited data

How the results depend on the processing

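The count of 4 ligands called between the vaults was 4 with a pseudocount of 0.1 or 0.01, after quantile normalization and with a common median, 5 with libraries rescaled to a common sum, 6 with the 6 vault libraries alone, 2 with a mean FPKM of at least 5 (3 at an unadjusted p under 0.05, since only 3 of the 8 pass that filter), 2 at an adjusted p under 0.05, and 0 with the replicate block, without moderation, with Krt14 as a covariate or with the epidermal markers as a covariate. Against control base the count of 3 was 1 with a pseudocount of 0.1 or 0.01 and 1 with a mean FPKM of at least 5, and the 4 ligands at an unadjusted p under 0.05 were 1 with that filter and 7 after quantile normalization. Between the control tissues the count of 2 was 0 with only the 6 libraries of the groups compared and with either covariate, and 1 with the replicate block, and 4 ligands were at an unadjusted p under 0.05 with a pseudocount of 0.01. Leaving out single libraries gave counts of 0 to 6 called between the vaults, 1 to 4 against control base and 1 to 2 between the control tissues. With a library left out, a group of 2 is assumed to vary like the others. Where a setting changed a count, the cause was not tested.

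Replicate numbers were shared between groups, and of 9 same-number pairs 2 had a correlation of deviations over 0.1 (range -0.55 to 0.37). Differences in tissue content between libraries, as in the muscle markers, enter these correlations too. They therefore cannot tell whether pools of the same number share embryos or litters. Why calls were lost under the block was not tested. Rescaling libraries to a common sum moved the median of all genes from -0.01 to 0.13 in the vault comparison, against which the ligands' median was 1.58.

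Signs turned in values that were not called. With Krt14 as a covariate these were Wnt10b (-0.67) and Kremen2 (-0.10) between the vaults, Wnt10a (-0.12) against base, and Krt5 (-0.0088), Wnt5a (-0.0112), Fzd10 (-0.48), Kremen2 (-0.17) and Apcdd1 (-0.45) between the control tissues. With the epidermal covariate they were Wnt10b (-0.62) and Kremen2 (-0.27) between the vaults, Wnt10a (-0.066) against base, and Fzd10 (-0.20), Kremen2 (-0.35) and Apcdd1 (-0.48) between the control tissues. Quantile normalization turned Fzd5 (0.12, against base) and Fzd10 (-0.13, control tissues), and a common median turned Wnt5a (-0.0022) and Fzd9 (-0.0439) between the control tissues. Without single libraries, Wnt10a against base ran from -0.28 to 0.33, and between the control tissues Wnt5a from -0.0463 to 0.30, Fzd10 from -0.12 to 0.34, Fzd9 from -0.32 to 0.24, Lef1 from -0.29 to 0.71 and Apcdd1 from -0.14 to 0.58. Of the other values for the 8 ligands and alternatives, 439 kept direction and side of the threshold, 57 lost a call and 8 gained 1.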
